A study of Mus musculus with 6 samples.

Results

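Potassium channel genes were taken as every gene row whose symbol starts with Kcn, followed by further small letters and then a number. The rule found 97 of the 24421 gene rows, of which 93 encode channel subunits and 4 are antisense transcripts. They were measured by RNA sequencing in mouse colon, in 3 samples with chronic colitis induced by dextran sulfate sodium (DSS) and in 3 control samples. DSS is a polysaccharide given to rodents to damage the lining of the colon. All 6 samples are labelled as colon of C57BL/6 mice with an age of 7 weeks, and no transgene or other agent is named. How much DSS was given, and for how long, the labels do not say. Nothing in the labels ties the samples to separate animals, and the p-values reflect the spread between these samples alone, which may be technical. Values are FPKM as deposited, a fragment density scaled to transcript length and library size. An error after ± is the SD of 3 samples, or the SE where so named.

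Potassium channels let potassium leave or enter cells along its gradient and so set the membrane potential. In the colonic epithelium, basolateral channels recycle potassium and keep the cell negative inside, which drives chloride secretion, and apical channels secrete potassium into the lumen. In smooth muscle and in interstitial and vascular mural cells the same family of proteins restrains contraction, and in leukocytes it sustains calcium entry. The pore is built by voltage-gated, calcium-activated, inward rectifier or tandem-pore-domain subunits, and accessory subunits such as KCNE proteins change how the pore opens.

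Each sample held between 11849 and 12543 genes at 1 FPKM or more, and summed FPKM lay between 609544 and 678076. Depth is unknown, because low values showed no steps of whole reads. Gapdh, a gene that every cell uses, was listed at 0, 21.4 and 36.1 FPKM in DSS 1, 2 and 3. In control 1, 2 and 3 it had 2, 0.117 and 0.145 FPKM, so a listed 0 or a low value can be a failed estimate. Of the 10 epithelial markers examined all reached the level for testing, as a colon sample should show, and Krt8 and Krt19 fell in DSS. Changes were tested in the 12348 genes that reached 1 FPKM in 3 or more samples, with limma on log2(FPKM + 1) and Benjamini-Hochberg adjustment over all of them. In that test 783 genes were higher and 316 lower in DSS. The median log2 fold change of all tested genes was 0.13. Other scalings of the samples shifted that median by -0.12 to -0.14, and the share of calls that were higher in DSS then went from 71.2% to between 50.8% and 53.8%, so a member's change is best read against that shift.

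Most potassium channel genes were low or undetected in whole colon. Of the 97 rows, 9 were listed at 0 in every sample, 33 were above 0 in some samples and 55 in all. The level for testing was reached by 17 members (17.5%), against 50.6% of all gene rows. Among those 17, Kcne4, Kcnj8 and Kcnma1 rose in DSS colon, Kcnf1 fell and 13 did not pass. The 4 calls are 23.5% of the tested members, and 8.90% of all tested genes were called, 6.34% higher and 2.56% lower. At an unadjusted limma p under 0.05 there were 10 of the 17, where 28.3% of all tested genes lay. The members split evenly around no change, 8 above and 9 below, with a median log2 fold change of -0.01. The groups did not overlap in 5 members higher in DSS (29.4%) and 6 lower (35.3%), and the shares among all tested genes were 25.6% and 9.51%. A gene passes the level for testing more easily when 1 group is high, so these counts describe the 17 genes and not the family.

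**Figure D1:**
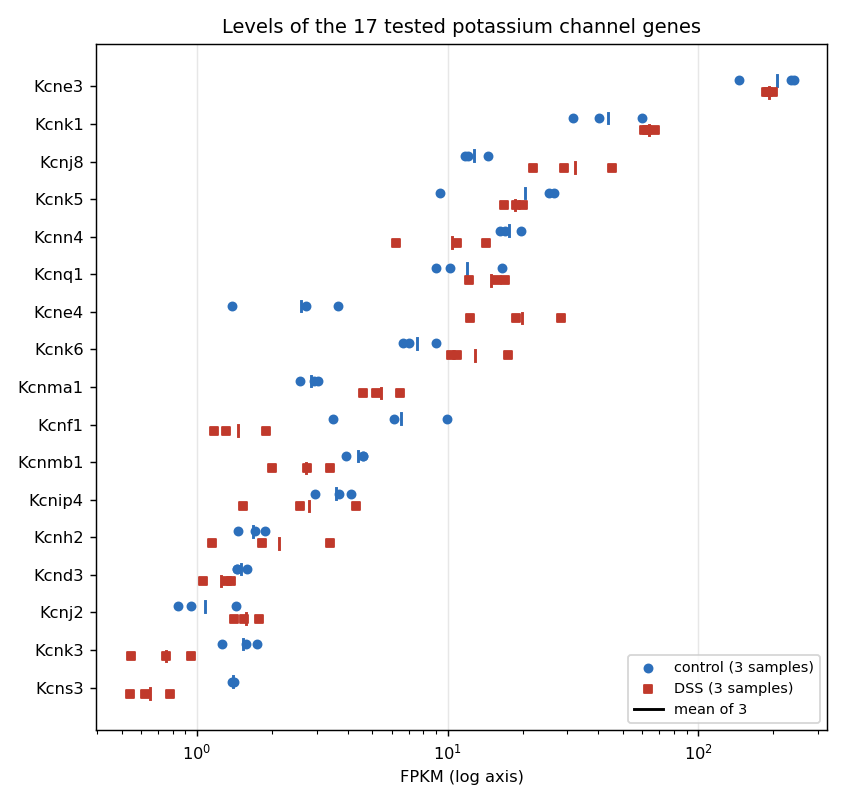
FPKM (log axis) of the 17 tested potassium channel genes in each of 3 control samples (blue circles) and 3 DSS samples (red squares), with the mean of each group as a vertical bar, ordered by mean level. Kcne3 stands highest, at 146 to 242 FPKM over all samples. Groups do not overlap in 5 genes higher in DSS and 6 lower, with Kcne4, Kcnj8, Kcnma1 and Kcnf1 among them.

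Kcne3 was the most abundant member in every sample. It encodes the accessory subunit that holds the KCNQ1 pore open in intestinal crypts. Its level was 199, 186 and 190.2 FPKM in DSS 1, 2 and 3 and 146, 234 and 242 FPKM in control 1, 2 and 3. The groups overlapped, with control 1 the lowest of the 6 and control 2 and 3 the highest. Kcne3 alone made up 45.9% to 49.8% of the summed FPKM of the family in DSS and 48.5%, 61.1% and 61.1% in control 1, 2 and 3. The summed level of all 97 rows was 399.8 ± 23.4 FPKM with DSS and 360.1 ± 51.2 FPKM in the controls. The 4 rows with the highest mean over all samples, Kcne3, Kcnk1, Kcnj8 and Kcnk5, held between 72.2% and 80.9% of it in each sample.

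By level per length in control colon, Kcnk1 came next at 43.8 ± 14.2 FPKM. Kcnk5 at 20.4 ± 9.67, Kcnn4 at 17.6 ± 1.81, Kcnj8 at 12.8 ± 1.55 and Kcnq1 at 11.9 ± 4.05 FPKM followed. Neighbours in that order overlapped between samples from Kcnk5 to Kcnn4 and from Kcnj8 to Kcnq1. Kcnk6 had 7.57 ± 1.27 FPKM and Kcnf1 6.54 ± 3.26 FPKM. In DSS colon the order below Kcne3 and Kcnk1 was Kcnj8 at 32.2 ± 11.8, Kcne4 at 19.8 ± 8.06, Kcnk5 at 18.6 ± 1.64 and Kcnq1 at 15.0 ± 2.44 FPKM, and each overlapped its neighbour.

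**Figure D2:**
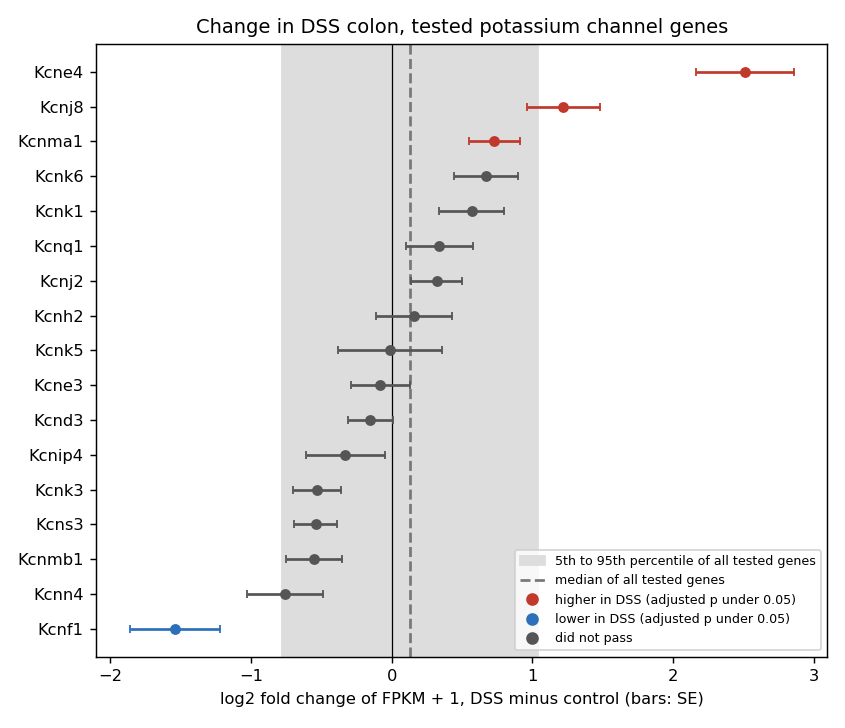
Log2 fold change (DSS minus control, on FPKM + 1) of the 17 tested members with its SE, against the 5th to 95th percentile of all tested genes (grey, -0.78 to 1.04) and their median (dashed, 0.13). Kcne4 and Kcnj8 lie above that range and Kcnf1 below it, while Kcnma1, at 0.73, lies within it.

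Kcne4 showed the largest change of the tested members. It encodes a KCNE accessory subunit known to inhibit KCNQ1 and some voltage-gated channels. The level of Kcne4 was 12.3, 18.8 and 28.3 FPKM in DSS 1, 2 and 3, and 1.38, 3.67 and 2.73 FPKM in control 1, 2 and 3. Every DSS sample was above every control, and DSS 1 was the lowest of its group. The means differed 7.64-fold (log2 fold change 2.51 ± 0.35 SE, adjusted p = 0.00767). This call passed in all 16 alternatives, with adjusted p between 0.00251 and 0.0378. Kcne4 lies on chromosome 1, 78816758 to 78820028 (GRCm38, plus strand), and a predicted gene, Gm29536, overlaps it on the other strand. Strand was not kept, so reads of the pair cannot be told apart.

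Kcnj8, the inward rectifier pore of the ATP-sensitive potassium channel of smooth muscle and pericytes, rose, as did the gene of its regulatory partner. Kcnj8 had 45.2, 22.0 and 29.3 FPKM in DSS 1, 2 and 3 and 14.5, 12.1 and 11.7 FPKM in control 1, 2 and 3. The groups were apart, and DSS 1 was the highest sample. The means differed 2.52-fold (log2 fold change 1.22 ± 0.26 SE, adjusted p = 0.0308). Abcc9 encodes the sulfonylurea receptor that joins this pore. It had 11.8, 6.36 and 9.43 FPKM in the DSS samples and 3.88, 3.85 and 3.30 FPKM in the controls (log2 fold change 1.09 ± 0.23 SE, adjusted p = 0.0291). The groups of Abcc9 were apart as well, with the samples of DSS in the same order as for Kcnj8, and the ratio of Abcc9 to Kcnj8 was 0.290 ± 0.0306 in DSS and 0.290 ± 0.0268 in control colon. The genes are neighbours on chromosome 6, with Kcnj8 at 142564837 to 142571614 and Abcc9 at 142587862 to 142702315, both on the minus strand and 16247 bases apart. Both calls were lost without DSS 3, without any 1 control and with no filter on low values, with adjusted p up to 0.117 for each.

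The pancreatic counterparts of that pair were low. Kcnj11, the other pore of ATP-sensitive channels, had 0.0963 to 0.278 FPKM with DSS and 0.174 to 0.212 FPKM in the controls, and its receptor gene Abcc8 had 0.0154 to 0.381 and 0.0144 to 0.0319 FPKM. Neither was tested. Beside the rise of Kcnj8 and Abcc9, the 10 endothelial and pericyte markers summed to 67.6 to 97.9 FPKM with DSS and 52.6 to 55.8 FPKM in the controls. Of 9 tested Egfl7 rose, and none was listed at 0 in all controls. In 4 of the 10 (Cdh5, Kdr, Pecam1 and Vwf) the DSS samples stood in the same order as for Kcnj8, and in the others, the pericyte marker Rgs5 among them, they did not. So few samples have few possible orders, and the share of all tested genes with this order was not counted. The part of endothelial cells and pericytes in the result was not tested. In pieces of whole colon, a change in the number of cells of a type and a change in RNA per cell cannot be told apart.

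The BK channel, a large-conductance channel opened by calcium and voltage, showed a pore gene and a muscle subunit gene with opposite differences. The pore gene Kcnma1 had 5.16, 4.62 and 6.46 FPKM in DSS 1, 2 and 3 and 2.57, 3.03 and 2.93 FPKM in the controls. The groups were apart, and the means differed 1.90-fold (log2 fold change 0.73 ± 0.18 SE, adjusted p = 0.0458). That call held in 4 of 16 alternatives and was lost under each of the 3 other scalings (adjusted p 0.0525 to 0.0649) and without any 1 sample (0.0502 to 0.145). The Kcnma1 locus overlaps 4930519K11Rik, 5430425E15Rik, Gm29626 and Gm46443 on the other strand. Reads cannot be told apart where their exons overlap those of Kcnma1. The beta subunit gene Kcnmb1, which raises the calcium sensitivity of the channel in smooth muscle, had 2.74, 1.99 and 3.41 FPKM with DSS and 4.59, 4.60 and 3.93 FPKM in the controls. Every DSS value was below every control, and the difference did not pass (log2 fold change -0.55 ± 0.20 SE, adjusted p = 0.121). Under quantile normalization Kcnmb1 passed (adjusted p = 0.0401).

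Within each sample, Kcnmb1 was below Kcnma1 with DSS and above it in the controls. The ratio of Kcnmb1 to Kcnma1 was 0.531, 0.430 and 0.529 in DSS 1, 2 and 3 and 1.79, 1.52 and 1.34 in control 1, 2 and 3. No DSS sample came near a control (two-sided exact permutation p = 0.1, which 3 against 3 cannot go below, and 0.15 adjusted over 6 ratios). A scaling of whole samples leaves such a ratio as it is. The ratios were chosen after the values were seen. Kcnmb1 lies within the Kcnip1 locus on the opposite strand, on chromosome 11 at 33963013 to 33973641, so reads of the pair cannot be told apart where exons overlap. Lrrc26, whose protein is the BK subunit of secretory epithelium, had 50.9, 61.1 and 40.7 FPKM with DSS and 34.1, 42.5 and 50.6 FPKM in the controls, with overlapping groups (adjusted p = 0.457). The ratio of Lrrc26 to Kcnma1 was 9.86, 13.2 and 6.31 in DSS and 13.3, 14 and 17.3 in control colon, so these groups did not overlap either, by a narrow gap (two-sided exact permutation p = 0.1, adjusted 0.15). Beside these values, the 13 smooth muscle markers summed to 1503 to 4139 FPKM with DSS and 4406 to 5499.9 FPKM in the controls. Of 12 tested Tpm2 fell, and none was at 0 in all controls. Their part in the BK values was not tested.

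**Figure D3:**
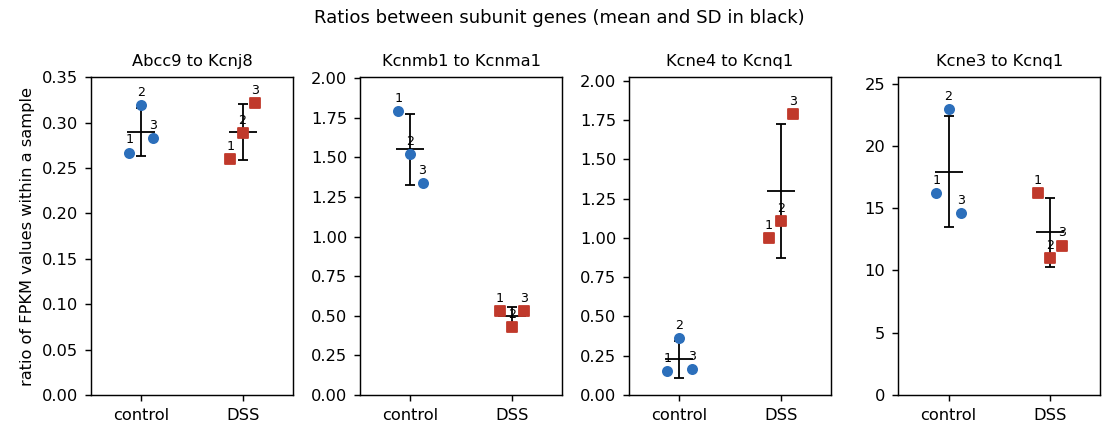
Ratio of 2 FPKM values within each sample for 4 pairs of subunit genes, control (blue circles) and DSS (red squares), with sample numbers beside the points and the mean and SD of 3 in black. The ratio of Abcc9 to Kcnj8 is 0.290 in both groups, Kcnmb1 to Kcnma1 averages 0.497 in DSS and 1.55 in control colon, and Kcne4 to Kcnq1 averages 1.30 and 0.226.

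Kcnf1 was the member that fell. It encodes an electrically silent voltage-gated subunit that forms no channel alone and changes the behaviour of the voltage-gated pores it joins. Kcnf1 had 1.17, 1.31 and 1.88 FPKM in DSS 1, 2 and 3 and 3.50, 9.97 and 6.14 FPKM in control 1, 2 and 3. The groups were apart although the controls differed widely, and the control mean was 4.50-fold the DSS mean (log2 fold change -1.54 ± 0.32 SE, adjusted p = 0.0306). The call was lost without DSS 2, DSS 3, control 2 or control 3 and with no filter on low values, with adjusted p up to 0.111. Kcnf1 lies on chromosome 12, 17172100 to 17176888, on the minus strand of GRCm38, and no annotated gene overlaps it.

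Other silent subunits were low. Kcns3, of the same kind as Kcnf1, had 0.784, 0.618 and 0.539 FPKM with DSS and 1.38, 1.39 and 1.41 FPKM in the controls. Its groups were apart and its difference did not pass (log2 fold change -0.54 ± 0.15 SE, adjusted p = 0.0706), but it passed under the 3 other scalings (0.0385 to 0.0484). Kcng1, another silent subunit, was listed at 0 in DSS 1 and 3 and had 0.0235 FPKM in DSS 2, against 0.273, 0.123 and 0.193 FPKM in the controls. Beside Kcnf1, the 10 epithelial markers summed to 8722 to 10264 FPKM with DSS and 13005 to 17066 FPKM in the controls. Of these 10, Krt8 and Krt19 fell and 8 did not pass, among them Cdx2 at 21.5, 102 and 97.6 FPKM with DSS against 12.6, 19.4 and 37.0 FPKM. None was at 0 in all controls, and their part was not tested.

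Sequence upstream of the gene start is shown for Kcne4 and Kcnj8, which rose, and for Kcnf1, which fell. It was taken from RefSeq (GRCm38.p6), which held a window for 71 of the 97 members, and runs 5′ to 3′ on the strand of the gene up to the start, leaving out bases that lie in annotated exons. The stretches are chr1:78816661-78816757 (plus) for Kcne4, chr6:142571615-142571864 (minus) for Kcnj8 and chr12:17176889-17177138 (minus) for Kcnf1. The window of Kcnma1 lay wholly within annotated exons and is not printed. Capitals would mark a motif match, and there was none.
Kcne4: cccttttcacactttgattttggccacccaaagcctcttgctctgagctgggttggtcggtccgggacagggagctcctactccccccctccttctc
Kcnj8: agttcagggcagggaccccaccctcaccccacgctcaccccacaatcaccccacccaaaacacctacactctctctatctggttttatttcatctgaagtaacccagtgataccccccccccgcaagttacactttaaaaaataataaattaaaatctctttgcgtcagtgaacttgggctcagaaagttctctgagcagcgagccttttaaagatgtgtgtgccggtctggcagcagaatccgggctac
Kcnf1: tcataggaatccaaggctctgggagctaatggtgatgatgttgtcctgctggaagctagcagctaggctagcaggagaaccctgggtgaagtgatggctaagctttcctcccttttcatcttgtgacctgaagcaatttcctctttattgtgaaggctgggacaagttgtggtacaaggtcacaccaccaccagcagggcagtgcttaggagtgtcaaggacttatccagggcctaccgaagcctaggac
Both strands of the 250 bases upstream of the RefSeq start were searched, annotated exon bases included. The motifs were the TATA box TATAAA, the GC box GGGCGG, the AP-1 motif TGANTCA, the STAT motif TTCNNNGAA, the NF-kappaB consensus and the CArG box, the serum response element. The windows of Kcne4, Kcnj8 and Kcnf1 held none of these letters. Among all 32851 windows the shares with a match were 12.4% for the TATA box, 32.7% for the GC box, 6.75% for AP-1, 7.02% for STAT, 3.9% for NF-kappaB and 1.47% for the CArG box. Kcnma1 held the GC box 3 times, with a pair of matches that overlap each other, in a window with 31 CpG dinucleotides. Kcne4, Kcnj8 and Kcnf1 had 7, 6 and 1 CpG in the whole window of 250 bases, and the median of all windows was 6. For Kcne4, 153 bases of that window lie in annotated exons and are not printed, so its count is not that of the stretch shown. These are descriptions of letters and say nothing about binding.

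Epithelial channels that sustain chloride secretion were not called. Kcnq1, the basolateral pore that pairs with KCNE3, had 12.2, 16.9 and 15.8 FPKM with DSS and 9.03, 10.2 and 16.5 FPKM in the controls, with overlapping groups. Its log2 fold change was 0.34, with a 95% interval of -0.23 to 0.91 (adjusted p = 0.399). For Kcne3 the log2 fold change was -0.08, with an interval of -0.57 to 0.41 (adjusted p = 0.838). The ratio of Kcne3 to Kcnq1 was 13.1 ± 2.78 in DSS and 17.9 ± 4.42 in control colon, also overlapping (exact permutation test, two-sided p = 0.3, adjusted 0.36). The ratio of Kcne4 to Kcnq1 was 1.0, 1.11 and 1.79 in DSS and 0.153, 0.361 and 0.165 in control colon. Kcne4 thus reached or passed the level of Kcnq1 in the DSS samples alone. Whether both genes are expressed in the same cells was not tested, and a ratio in whole colon cannot show it. Kcne4 was listed with smooth muscle and interstitial channels and Kcnq1 with epithelial ones. An exact permutation test of the ratio gave a two-sided p = 0.1, the smallest possible here, and 0.15 adjusted over 6 ratios. Kcnq1ot1, the antisense transcript in the Kcnq1 locus, had 0.0136 to 0.0336 FPKM over the 6 samples, and it shares near-identical stretches with transcripts of other genes.

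Kcnn4, the calcium-activated channel of epithelial basolateral membranes and of activated leukocytes, had 14.2, 6.24 and 10.9 FPKM with DSS and 19.7, 17 and 16.2 FPKM in the controls. All DSS values were below all controls, with DSS 2 the lowest, and the difference did not pass (log2 fold change -0.76 ± 0.27 SE, adjusted p = 0.118). Without DSS 1 it passed (adjusted p = 0.0371). Leukocyte and epithelial markers were examined in the same samples. The 10 neutrophil markers, which all rose, summed to 4114 to 6988 FPKM with DSS and 7.92 to 30.7 FPKM in the controls. The 9 T and NK cell markers with a row summed to 42.1 to 162 and 6.2 to 9.12 FPKM, and 4 of 5 tested rose. The 11 macrophage and monocyte markers summed to 377 to 489.8 and 270.1 to 343 FPKM, and 3 rose while 8 did not pass. The 10 epithelial markers summed to 8722 to 10264 FPKM with DSS and 13005 to 17066 FPKM in the controls, and 2 fell while 8 did not pass. None of these lists had a gene at 0 in all controls, and their part in the value of Kcnn4 was not tested. Kcna3, the voltage-gated channel of T cells, stayed low, at 0.146, 0.0341 and 0.225 FPKM with DSS and at a listed 0, 0.0457 and a listed 0 in control colon.

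The tandem-pore-domain channels, which carry background potassium current, were the class with the second highest summed level, at 97.8 ± 1.71 FPKM with DSS and 74.6 ± 6.74 FPKM in the controls. No single gene of the class passed among 4 tested. Kcnk1 had 62.6, 67.3 and 61.0 FPKM with DSS and 59.5, 31.7 and 40.3 FPKM in the controls, so control 1 lay just under the lowest DSS sample (log2 fold change 0.57 ± 0.23 SE, adjusted p = 0.149). Kcnk6, known for potassium efflux in macrophages, had 10.9, 10.3 and 17.4 FPKM with DSS and 9.02, 7.02 and 6.66 FPKM in the controls, with the groups apart (log2 fold change 0.67 ± 0.23 SE, adjusted p = 0.11). Kcnk3, an acid-sensitive channel, had 0.546, 0.950 and 0.755 FPKM with DSS and 1.26, 1.74 and 1.57 FPKM in the controls, also apart (log2 fold change -0.53 ± 0.17 SE, adjusted p = 0.102). Kcnk5, a channel of epithelial basolateral membranes, had 20.1, 16.8 and 18.8 FPKM with DSS and 9.30, 25.4 and 26.7 FPKM in the controls. The controls lay on both sides of the DSS samples, with control 1 low here as it was for Kcne3 and high for Kcnk1. The interval of the log2 fold change of Kcnk5 ran from -0.88 to 0.87, and without control 1 its value was -0.47 (adjusted p = 0.145).

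**Figure D4:**
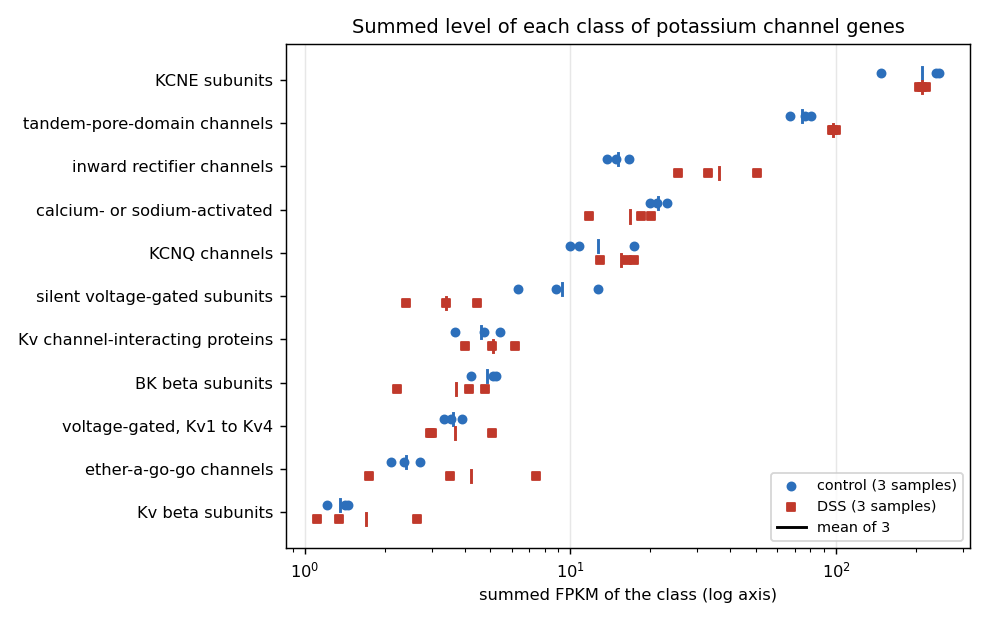
Summed FPKM (log axis) of each of 11 classes of potassium channel genes in 3 control (blue circles) and 3 DSS samples (red squares), with group means as vertical bars. KCNE subunits stand highest, inward rectifiers sum to 36.2 ± 12.7 FPKM with DSS and 15.1 ± 1.5 in control colon, and silent voltage-gated subunits to 3.41 ± 1.02 and 9.28 ± 3.19.

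The class sums followed single genes, since Kcnj8 held most of the inward rectifier sum and Kcnf1 most of that of silent subunits in control colon. Kcnj2, the classical inward rectifier, had 1.41, 1.77 and 1.54 FPKM with DSS and 0.950, 1.43 and 0.843 FPKM in the controls (adjusted p = 0.284). Among voltage-gated genes of muscle and interstitial cells, Kcnd3 had 1.25 ± 0.167 FPKM with DSS and 1.5 ± 0.0815 FPKM in the controls (adjusted p = 0.56). Kcnh2, the ether-a-go-go related channel, had 1.15, 1.82 and 3.39 FPKM with DSS and 1.70, 1.46 and 1.87 FPKM in the controls (adjusted p = 0.738). Kcnip4, a calcium sensor that binds KCND pores, had 4.30, 1.52 and 2.57 FPKM with DSS and 3.70, 4.12 and 2.97 FPKM in the controls (adjusted p = 0.478). Of these 4 genes, Kcnd3 had groups that did not overlap.

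Members were also counted by where their channels are known to act. Of 16 genes listed for smooth muscle and interstitial cells 8 were tested and 3 rose (Kcne4, Kcnj8 and Kcnma1). That is 37.5% of the 8, where 6.34% of all tested genes rose, and the median log2 fold change was 0.24. Among the 16, every DSS value lay above every control in 4 genes and below every control in 3. Those 3 were Kcnd3, Kcnk3 and Kcnmb1, and none of them passed. The list was drawn up with earlier results of these data known. Of 12 genes listed for epithelial potassium transport 7 were tested, and Kcnma1, which is in both lists, rose (14.3%). The median was 0.34. None of the 4 tested among 9 leukocyte channel genes passed (limma), and 2 of them, Kcnn4 and Kcnk6, had an unadjusted p under 0.05, as 28.3% of all tested genes did. No test compared these lists with each other or with other genes, and the median of all tested genes was 0.13.

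Partner proteins and other potassium and chloride transport genes were counted in the same way. Of 16 partner genes 9 were tested and Abcc9 rose. Of 34 other genes of potassium and chloride transport 28 were tested, Fxyd3 and Fxyd5 rose and Ano1, Clca1 and Nr3c2 fell. Those are 7.14% higher and 10.7% lower, where 6.34% and 2.56% of all tested genes were called. Fxyd3 and Fxyd5 encode small regulators of the sodium-potassium pump. Fxyd3 had 117 ± 5.71 FPKM with DSS against 69.0 ± 10.1 FPKM (adjusted p = 0.0266), and Fxyd5 42.7 ± 5.27 against 17.6 ± 3.61 FPKM (adjusted p = 0.00919). Ano1, a calcium-activated chloride channel, had 15.3, 5.19 and 8.55 FPKM with DSS against 29.1, 39.3 and 33.0 FPKM (adjusted p = 0.0216). Clca1, a secreted goblet cell protein, had 756, 159 and 295 FPKM with DSS against 3793, 3285 and 3964 FPKM (adjusted p = 0.0114). Slc12a2, the cotransporter that loads chloride and potassium across the basolateral membrane, had 48.4, 64.4 and 64.8 FPKM with DSS and 21.6, 36.3 and 35.3 FPKM in the controls, with groups apart and adjusted p = 0.0503. Atp12a, the colonic proton-potassium pump that reclaims potassium, had 60.3, 0.631 and 7.31 FPKM with DSS and 313, 114 and 406 FPKM in the controls (log2 fold change -4.70 ± 1.29 SE, adjusted p = 0.0757). Nr3c2, the mineralocorticoid receptor, had 8.77, 5.80 and 4.61 FPKM with DSS and 21.1, 14.8 and 19.1 FPKM in the controls (adjusted p = 0.0152). Without DSS 3 the calls of Fxyd3, Ano1, Clca1 and Nr3c2 were lost, as were those of Fxyd3, Ano1 and Clca1 without any 1 control, of Nr3c2 without control 1 or 3 and of Fxyd5 without control 2 or 3, with adjusted p up to 0.102. With the replicate number as a block the calls of Fxyd3 and Ano1 were lost as well (adjusted p = 0.0524 and 0.0509).

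Below the level for testing lay 80 members, 71 of them above 0 in a sample. Among those 71 the groups did not overlap in 7 genes higher in DSS and 6 lower, which is 9.86% and 8.45% of them, and the shares among all such rows were 9.42% and 5.98%. With the level lowered to 0.1 FPKM 55 members were tested and no further member passed (limma). Kcnh3, a neuronal ether-a-go-go channel, had 0.358, 1.37 and 3.6 FPKM in DSS 1, 2 and 3 and 0.0823, 0.0373 and 0.205 FPKM in the controls. All DSS samples were above all controls, and DSS 3 was far above DSS 1 (log2 fold change 1.15, adjusted p = 0.124 with the level at 0.1 FPKM). The locus overlaps Mcrs1 on the other strand. Kcnip1, which binds KCND pores, had 0.350, 2.0 and 3.06 FPKM with DSS and 0.323 to 0.663 FPKM in the controls, so DSS 1 lay among the controls. Kcnd1 had 0.232, 0.647 and 0.785 FPKM with DSS and 0.112 to 0.194 FPKM in the controls. The inward rectifier gene Kcnj15 had 0.721, 0.141 and 0.626 FPKM with DSS and 0.0359 to 0.0529 FPKM in the controls.

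The 6 low genes with every DSS value under every control were Kcna1, Kcna6, Kcng1, Kcnh8, Kcnj12 and Kcnt2. Kcna1 and Kcna6, voltage-gated channels of neurons, had 0.0491 to 0.123 and 0.127 to 0.186 FPKM with DSS and 0.188 to 0.350 and 0.227 to 0.446 FPKM in the controls. All 6 were under 0.5 FPKM in every sample.

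**Figure D5:**
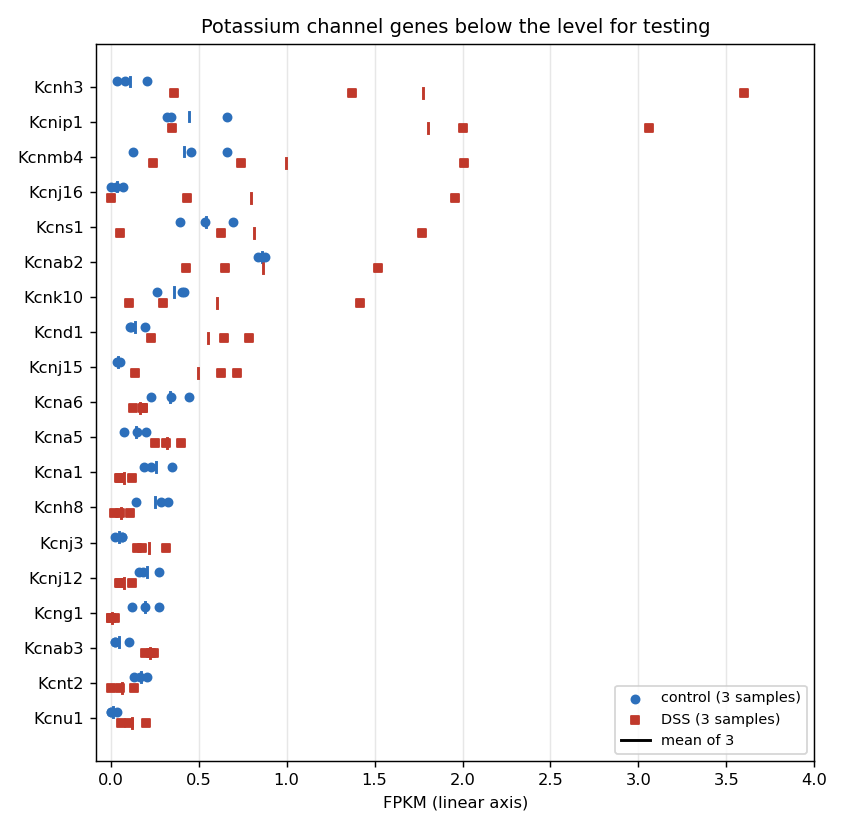
FPKM (linear axis) of the 19 members below the level for testing that had groups apart or reached 1 FPKM in a sample, in 3 control (blue circles) and 3 DSS samples (red squares) with group means as bars. Kcnh3 and Kcnip1 are highest in DSS 3, and Kcnmb4, Kcnj16, Kcns1, Kcnab2 and Kcnk10 in DSS 1.

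DSS 1 stood apart from the other DSS samples in 5 low genes, which were picked after their values were seen. Kcnj16, an inward rectifier subunit, had 1.96, 0.436 and a listed 0 FPKM in DSS 1, 2 and 3 and 0 to 0.0719 FPKM in the controls. Kcnmb4, a BK beta subunit, had 2.01, 0.243 and 0.741 FPKM with DSS and 0.129 to 0.662 FPKM in the controls. Kcns1 had 1.77, 0.0532 and 0.626 FPKM, Kcnk10 1.42, 0.102 and 0.297 FPKM and Kcnab2 1.52, 0.427 and 0.648 FPKM in the DSS samples. The controls had 0.393 to 0.698 FPKM of Kcns1, 0.266 to 0.418 FPKM of Kcnk10 and 0.836 to 0.877 FPKM of Kcnab2. In these 5 genes DSS 1 was the highest of all 6 samples. Of 30 untested members that reached 0.3 FPKM, 10 were highest in DSS 1 and 11 in DSS 3, and of 3309 such rows in all 22.8% and 30.3% were. The sum of the B and plasma cell markers was also highest in DSS 1, at 2734 FPKM, with 605 and 201 FPKM in DSS 2 and 3 and 609 to 859.5 FPKM in the controls. Jchain alone had 2429 FPKM in DSS 1. Cd22 and Sdc1 were highest in a control, and the other markers of the list in DSS 1. None of 8 tested passed (0 at an unadjusted limma p under 0.05), none was at 0 in all controls, and their part in these 5 genes was not tested.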

How the data were processed

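RNA of mouse colon was measured in 3 DSS and 3 control samples, grouped and numbered by their titles. The authors deposited FPKM values per gene, per the file headers. The tool TopHat2 2.1.1 and the build mm10 stand in the submitters' processing notes, and the program that made the FPKM values is not given in the sources used here. Non-directional second-strand synthesis is named in the labels' protocols, so strand was taken as not kept. The fit took log2(FPKM + 1) of every gene that reached 1 FPKM in 3 or more samples, with group as the term, in limma 3.58.1 (R 4.3.3; robust moderation with trend; two-sided). Calls needed an adjusted p under 0.05 over all tested genes. The fit was also run on simulated data with normal errors drawn separately for each gene. Such data do not reproduce shifts of whole samples or failed estimates. Fold changes on this scale understate those of low genes.

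The members and gene lists were chosen with earlier results of these data known. Members were named that passed, had an unadjusted p under 0.05, reached a mean of 5 FPKM in a group or stood in a list and were tested. Genes named outside this rule, those below the level for testing included, and the 6 ratios were chosen after their values were seen. Kcne1l, whose symbol ends in a letter, was kept among KCNE subunits, because the annotation gives it as protein-coding. All 97 members matched GENCODE vM21 (GRCm38). Stretches near-identical to transcripts of genes elsewhere (95% identity over 200 bases or more, BLAST+ 2.17.0) were found for Kcnj14 and Kcnq1ot1. Ratios of low values between samples fell in no common steps (at most 3.33% in 1 bin of width 0.02 on the log2 scale), which leaves the depth unknown and gives no floor. Some results are not reported here. Alternatives covered scaling, pseudocount, filter, moderation, a replicate block and each sample left out.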

Additional observations from a re-analysis of the deposited data

How the results depend on the processing

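Of 266 values of the 17 tested members over 16 alternatives, 239 kept their direction where called and their side of the threshold, 22 lost the call (those of Kcnf1, Kcnj8 and Kcnma1) and 5 gained it (Kcns3, Kcnmb1 and Kcnn4). None of the called values changed sign. The number of members higher in DSS was 3, and 1 with no filter on low values. It was 2 under each of the 3 other scalings and with the filter at 0.1 FPKM. The number lower was 1, 2 with scaling by the upper quartile or by median ratios, 3 under quantile normalization and 0 with no filter. Leaving out 1 sample at a time gave 1 to 2 higher and 0 to 2 lower members, and 191 to 972 higher and 58 to 584 lower genes among all tested. Such a fit held 5 samples. Scaling by median ratios gave 513 lower genes and quantile normalization 497, where the unscaled fit gave 316. The median log2 fold change of the tested members ran from -0.15 to 0.24 over the alternatives. A pseudocount of 0.1 or 0.5 changed no call of a member.

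With the replicate number as a block 2 members were higher and 1 lower, and 640 and 255 of all tested genes. Kcnma1 lost the call there (adjusted p = 0.0763), as did Fxyd3 (0.0524) and Ano1 (0.0509). The numbers were not taken as pairs in the main fit. Deviations of samples with the same number correlated at 0.082, 0.129 and 0.003. DSS 1 and DSS 2 correlated best with the control of their own number, and DSS 3 with control 1 (0.034). Values this low do not settle whether the numbers are pairs. Kcnk3 and Kcns3 fell under the filter when 1 control was left out and have no value there. Groups of 3 and an unknown depth limit every value, and members under 1 FPKM most.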
